A study of Mus musculus with 16 samples.

Results

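The 10 genes described here encode netrin-1, 3 class 3 semaphorins and 6 of their receptors, and were followed across 16 RNA-seq libraries of mouse C2C12 cells. They are the rows named Ntn1, Sema3a, Sema3c, Sema3d, Neo1, Unc5b, Unc5c, Nrp1, Nrp2 and Plxna1, which is 10 of the 35275 genes in the table. The set was selected on measured values: Ntn1 and Sema3d were picked because they are lower in knockout than in control cells. Genotype differences of the 10 genes are therefore given as a description with no test. Of the 10, 9 had a mean level of at least 0.5 FPKM (fragment counts divided by gene length and by library size) over the 16 libraries and entered the tests, which covered 11832 genes. Unc5c was below that level.

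C2C12 is an established mouse myoblast line whose cells fuse into multinucleate myotubes when serum is withdrawn. The labels call the cells PAX7 NEG. Control cells, labelled wild-type, came as population 1 and population 2, and the knockout cells (tKO) as 2 clones lacking miR-206 and both miR-1a genes, miR-1a-1 and miR-1a-2. Each of these 4 lines was sampled in growth medium with 20% fetal bovine serum (GM) and after 3 days with 2% HS as the serum (DM3). Each line was represented by culture 1 and culture 2 at each stage, so each of the 4 groups held 4 libraries. A clone descends from 1 cell, so differences between tKO and control cells can also be differences between clones and populations, and with 2 clones these cannot be told apart. The labels do not say how the control populations were derived.

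Netrins and class 3 semaphorins are secreted proteins that steer growing axons and migrating cells, including blood vessel cells and muscle precursors. Netrin-1, made from Ntn1, binds neogenin (Neo1) and the Unc5 receptors, and Dcc is its classical attractive receptor in neurons. Class 3 semaphorins bind neuropilins (Nrp1, Nrp2), which hold the ligand, and A-type plexins (Plxna1), which carry the signal into the cell and change its cytoskeleton and adhesion. Neuropilins also bind vascular endothelial growth factors, and neogenin also binds repulsive guidance molecules. Netrin-1 and neogenin have been linked to myoblast fusion, and Sema3a from muscle cells to the growth of motor nerves.

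miR-206 is a muscle microRNA that pairs with target messages through its seed, bases 2 to 8. It is shown because the knockout removes it, with the seed in capitals, as RefSeq lists it for GRCm38.p6 at chr1:20679055-20679076 on the plus strand. The seed pairs with ACATTCC in a message. The longest annotated 3′ UTR (GENCODE release M21) of each of the 10 genes was searched for these letters on the message strand, and only that of Nrp2 held them, once, at base 2241 of 3325. That site is printed as 28 bases with the match in capitals.
mmu-miR-206-3p: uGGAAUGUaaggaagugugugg
Nrp2 site: gcaaatgattgACATTCCtacaggtgcc
The longer 8-base form ACATTCCA was in none of the 10. Among 10806 tested genes with an annotated 3′ UTR, 11.6% held the 7 bases and 4.46% the 8 bases. Their median 3′ UTR was 1191 bases, while those of the members other than Nrp1 had 2512 to 6352, so these shares are not matched for length. The 3′ UTRs of Ntn1, 3642 bases, and Sema3d, 3646 bases, held neither. That of Nrp1 was short, at 549 bases. The deposited position of Nrp1 ends at chr8:128505462 and the GENCODE one at 128503363, so the bases beyond the GENCODE end were not searched. A match is a description of the letters and shows no binding, and the knocked-out microRNAs themselves were not measured here.

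Sema3d, Sema3c and Sema3a are the ligand genes whose level rose with differentiation in 1 or both genotypes, as described further on, so the 300 bases around their RefSeq starts are printed, from 250 before to 50 after the start. Capitals mark each E-box, CANNTG, the letters that myogenic basic helix-loop-helix factors such as MyoD and myogenin bind. CANNTG reads as CANNTG on both strands, so 1 search covers both.
mouse Sema3d promoter, GRCm38.p6 chr5:12382916-12383215, plus strand: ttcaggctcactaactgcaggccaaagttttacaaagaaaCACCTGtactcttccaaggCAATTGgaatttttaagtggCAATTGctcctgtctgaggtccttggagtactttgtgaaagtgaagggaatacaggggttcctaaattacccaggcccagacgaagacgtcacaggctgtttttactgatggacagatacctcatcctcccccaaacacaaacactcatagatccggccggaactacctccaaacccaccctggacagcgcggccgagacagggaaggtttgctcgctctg
mouse Sema3c promoter, GRCm38.p6 chr5:17574566-17574865, plus strand: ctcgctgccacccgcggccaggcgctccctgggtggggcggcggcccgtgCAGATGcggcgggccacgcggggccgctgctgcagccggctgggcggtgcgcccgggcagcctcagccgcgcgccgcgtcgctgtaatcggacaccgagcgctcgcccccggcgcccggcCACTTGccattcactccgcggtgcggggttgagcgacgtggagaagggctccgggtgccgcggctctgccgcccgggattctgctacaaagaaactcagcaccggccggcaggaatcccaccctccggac
mouse Sema3a promoter, GRCm38.p6 chr5:13396534-13396833, plus strand: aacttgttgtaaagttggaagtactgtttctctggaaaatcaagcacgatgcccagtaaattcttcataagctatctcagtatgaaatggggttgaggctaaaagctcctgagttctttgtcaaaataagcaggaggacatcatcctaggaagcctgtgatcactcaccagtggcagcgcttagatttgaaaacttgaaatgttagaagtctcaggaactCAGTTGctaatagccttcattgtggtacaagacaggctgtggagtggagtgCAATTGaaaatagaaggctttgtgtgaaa
The Sema3d window held 3 E-boxes, CACCTG at -210 and CAATTG at -191 and -171 from the start. The Sema3c window held 2, CAGATG at -200 and CACTTG at -80, and the Sema3a window held 2, CAGTTG at -30 and CAATTG at 21. GENCODE starts Sema3a further upstream, at 13125414, and the Sema3c window lies after the deposited gene start of 17574281. Other annotated starts were not searched. Of the other members in the RefSeq promoter table, Nrp2 had 1, and Neo1, Unc5b, Unc5c and Nrp1 had 0. Ntn1 and Plxna1 were not matched. Of all 32851 promoters of this length, 72.3% held at least 1 E-box, 39.6% at least 2 and 17.6% at least 3, so the number in the Sema3d window is not rare. The Sema3c and Neo1 windows are rich in G and C, at 75.7% and 82.7%, against 49.7% for Sema3d and 41.3% for Sema3a.

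Library depth ran from 22642563 to 56585952 fragments, recovered as whole numbers from the FPKM values. The floor of 3 fragments corresponds to 0.0241 FPKM or less for every member and covers counting error only. Muscle markers matched the labelled cells in part. Myf5 was at 8.94 to 27.2 FPKM in all 16 libraries, and desmin (Des) at 9.22 to 47.8 FPKM in GM and 80.2 to 415 FPKM in DM3. Myod1 was listed at 0 in the 4 control GM libraries and reached 0.0546 FPKM at most in tKO GM, against 0.746 to 3.41 FPKM in DM3. No endothelial (7 listed) or Schwann cell (5 listed) marker had a group mean of 0.5 FPKM or more. Of 7 fibroblast markers, 5 did in every group. In bulk RNA, fewer cells that express a gene and less RNA per cell cannot be told apart.

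Ntn1 was the most abundant of the 4 ligand genes in control cells and was low in tKO cells at both stages. It lies at chr11:68209364-68400823 on the minus strand (mm10, as the table gives it). In control GM it was at 30.8 and 26.95 FPKM in population 1 (cultures 1 and 2) and at 26.2 and 25.5 FPKM in population 2. In tKO GM it was at 6.24 and 2.22 FPKM in clone 1 and at 2.37 and 1.89 FPKM in clone 2. The 2 groups do not overlap, and culture 1 of clone 1 stands above the other 3 tKO libraries. The mean was 27.4 ± 2.35 FPKM in control GM and 3.18 ± 2.05 FPKM in tKO GM (SD, n = 4), which is 8.61-fold lower. In DM3 the control libraries held 16.0 and 18.8 FPKM in population 1 and 15.6 and 20.8 FPKM in population 2. The tKO libraries held 6.11 and 6.09 FPKM in clone 1 and 2.38 and 4.21 FPKM in clone 2. Again no tKO library reached a control one, and the mean of 4.70 ± 1.79 FPKM was 3.79-fold below the control mean of 17.8 ± 2.46 FPKM (SD, n = 4). On the log2(FPKM + 1) scale the tKO minus control difference was -2.87 in GM (-2.58 in culture 1 and -3.16 in culture 2) and -1.78 in DM3 (-1.78 and -1.77). These differences helped to choose the set and carry no test.

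Sema3d, a repellent ligand with a part in blood vessel patterning, was almost silent in GM and switched on in differentiated control cells, and it stayed low in both tKO clones. It lies at chr5:12383166-12588943 on the plus strand. Control GM libraries held 0.316 and 0.204 FPKM in population 1 (72 and 33 fragments) and 0.159 and 0.245 FPKM in population 2 (35 and 52 fragments). In tKO GM there were 9 and 7 fragments in clone 1 and 2 and 0 in clone 2, so both libraries of clone 2 were at or under the floor of 3 fragments. All 4 tKO values lie below all 4 control values, at levels where single fragments count. In control DM3 the gene reached 16.9 and 9.76 FPKM in population 1 and 12.7 and 11.1 FPKM in population 2. In tKO DM3 it was at 1.23 and 1.88 FPKM in clone 1 (258 and 353 fragments) and at 0.354 and 0.310 FPKM in clone 2 (64 and 63 fragments). The groups are far apart in DM3, and the clones also separate from each other. The mean was 12.6 ± 3.10 FPKM in control DM3 and 0.945 ± 0.755 FPKM in tKO DM3 (SD, n = 4), a 13.3-fold lower level. The tKO minus control difference of log2(FPKM + 1) was -0.26 in GM and -2.86 in DM3, with no test for the same reason as for Ntn1. The pseudocount of 1 hides most of the GM difference of so low a gene, whose means differed 8.90-fold.

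Sema3a and Sema3c, ligands of the same class, overlapped between genotypes at both stages. Sema3a, which collapses growth cones through Nrp1 and A-type plexins, lies at chr5:13396784-13602565 on the plus strand. It was at 6.86, 6.71, 4.65 and 8.95 FPKM in control GM (populations 1 and 2, cultures 1 and 2 of each) and at 8.94, 9.77, 7.49 and 7.37 FPKM in tKO GM. In DM3 the control values were 8.05, 8.99, 7.01 and 10.9 FPKM and the tKO values 8.69, 20.05, 11.7 and 13.98 FPKM. The highest value in the series is culture 2 of clone 1, and the lowest tKO DM3 value is the other culture of the same clone. Sema3c, which guides cells through both neuropilins, lies at chr5:17574281-17730268 on the plus strand. It was at 3.38, 4.84, 2.50 and 6.12 FPKM in control GM and at 6.37, 2.25, 2.27 and 2.08 FPKM in tKO GM, where culture 1 of clone 1 alone exceeds every control library. In DM3 it was at 15.6, 13.4, 11.8 and 12.99 FPKM in control and 19.5, 21.2, 15.8 and 13.01 FPKM in tKO cells. The Sema3c difference in GM turned with the culture, at 0.33 in culture 1 and -1.03 in culture 2 on the log2(FPKM + 1) scale, tKO minus control. Sema3a was higher in tKO cells by 0.29 in GM and 0.54 in DM3 on that scale, with overlapping groups.

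**Figure D1:**
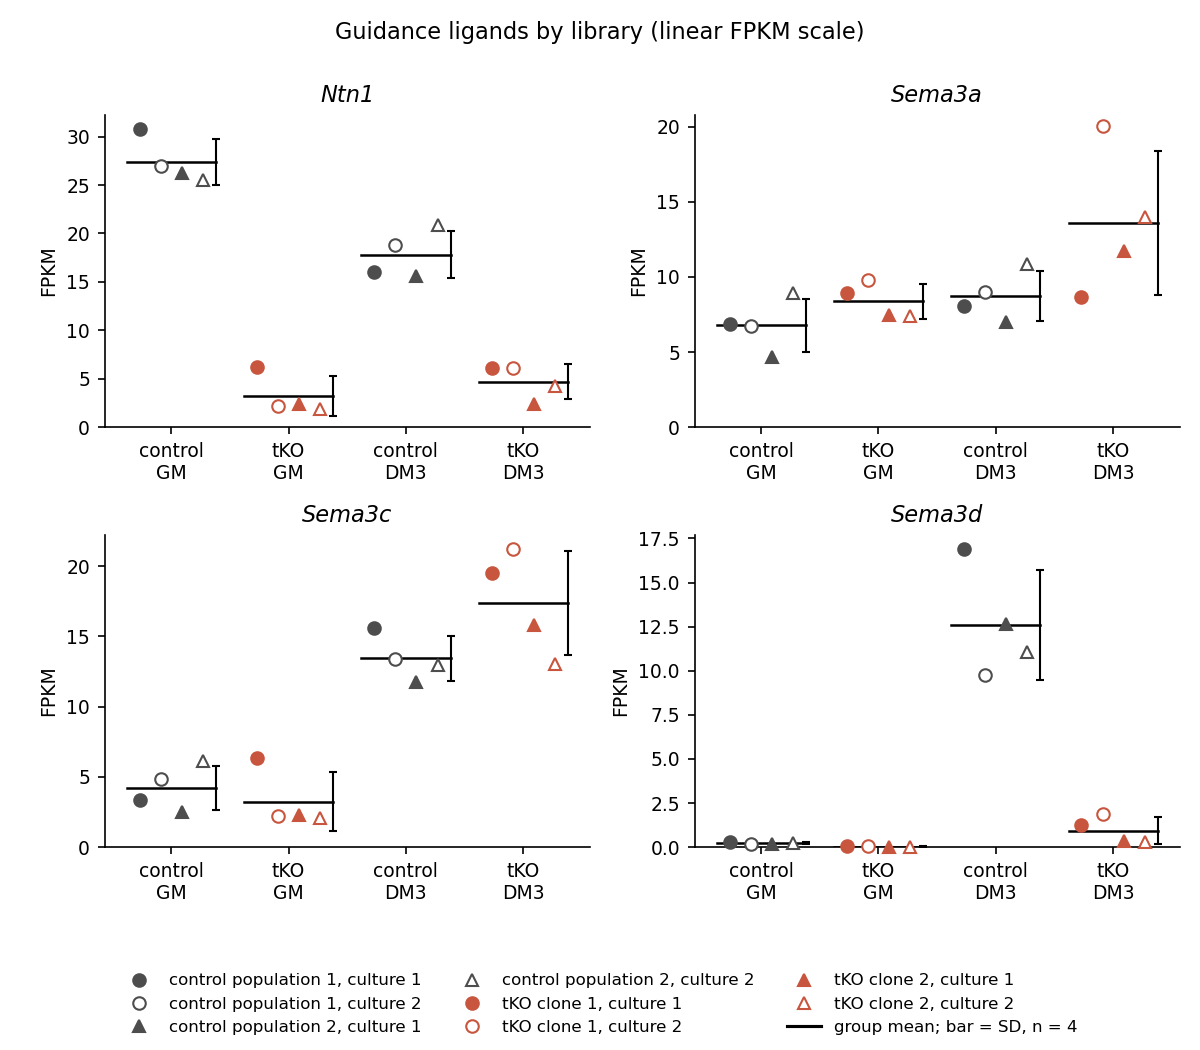
FPKM (linear axis from 0) of the 4 ligand genes in each of the 16 libraries, by group; colour gives the genotype, symbol the line, fill the culture, the line the group mean and the bar the SD (n = 4). Ntn1 in tKO libraries lies between 1.89 and 6.24, below the lowest control value of 15.6, and Sema3d rises to between 9.76 and 16.9 in control DM3 whereas tKO DM3 reaches 1.88 at most.

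The receptor genes were expressed in both genotypes at levels that overlapped, apart from Unc5c in GM. Nrp2, the neuropilin with the highest level of all members in every group, lies at chr1:62703285-62818695 on the plus strand and holds the seed match printed above. It was at 82.8, 81.2, 78.0 and 82.5 FPKM in control GM and 61.0, 46.2, 93.2 and 76.4 FPKM in tKO GM, so the tKO values surround the control ones. In DM3 it was at 61.0, 73.8, 68.8 and 78.7 FPKM in control and 70.1, 72.4, 87.9 and 111 FPKM in tKO cells. The tKO minus control difference of log2(FPKM + 1) was -0.27 in GM and 0.25 in DM3, and the GM value turned to 0.06 without clone 1. Clone 2 was above clone 1 in both stages.

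Nrp1, the neuropilin through which Sema3a acts, lies at chr8:128359073-128505462 on the plus strand. It was at 21.8, 22.5, 18.5 and 25.8 FPKM in control GM and 20.3, 18.6, 20.8 and 23.5 FPKM in tKO GM. In DM3 the control values were 9.75, 11.2, 7.77 and 12.4 FPKM and the tKO values 14.1, 19.0, 11.9 and 17.5 FPKM. Only the lowest tKO DM3 library, culture 1 of clone 2, falls within the control range. The tKO minus control difference of log2(FPKM + 1) was -0.08 in GM and 0.55 in DM3, and the DM3 value was 0.52 in culture 1 and 0.59 in culture 2. Plxna1, the plexin that signals for both neuropilins, lies at chr6:89316316-89362613 on the minus strand. In GM it was at 24.9 to 31.5 FPKM in control and 18.4 to 32.5 FPKM in tKO cells, and in DM3 at 16.7 to 21.9 and 17.3 to 19.3 FPKM. Part of its exons, 10.7% of the bases, overlaps Gm26811 on the opposite strand, and whether the counting used strand is not given in the sources used here.

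Neo1, the netrin and repulsive guidance molecule receptor neogenin, lies at chr9:58874679-59036441 on the minus strand. In GM its level was 32.8 to 42.8 FPKM in control and 25.4 to 40.9 FPKM in tKO cells, and in DM3 it was 19.1 to 28.9 and 16.8 to 29.3 FPKM. The DM3 genotype difference of log2(FPKM + 1) was -0.35 in culture 1 and 0.40 in culture 2, and the groups overlap in both stages. Unc5b, which turns netrin-1 into a repellent and is best known in blood vessels, lies at chr10:60762610-60831581 on the minus strand. In GM it was at 32.2 to 38.9 FPKM in control and 25.5 to 45.4 FPKM in tKO cells, and in DM3 at 18.7 to 23.3 and 15.5 to 25.2 FPKM, which is nearly the same mean in both genotypes at each stage.

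Unc5c, a second receptor of the Unc5 family, lies at chr3:141465564-141834924 on the plus strand and was near the limit of what is counted as expressed. Control GM libraries held 0.489, 0.537, 0.478 and 0.634 FPKM and tKO GM libraries 0.105, 0.247, 0.123 and 0.394 FPKM. The GM groups do not overlap. In DM3 the values were 0.561, 0.616, 0.358 and 1.06 FPKM in control and 0.0737, 0.770, 0.186 and 0.777 FPKM in tKO cells, with culture 1 of both clones low and culture 2 high. Every library had at least 22 fragments. It was not tested, and the fit without a filter on low values gave adjusted p-values of 0.792 and 0.34 for its change with differentiation in control and tKO cells (limma, Benjamini-Hochberg).

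**Figure D2:**
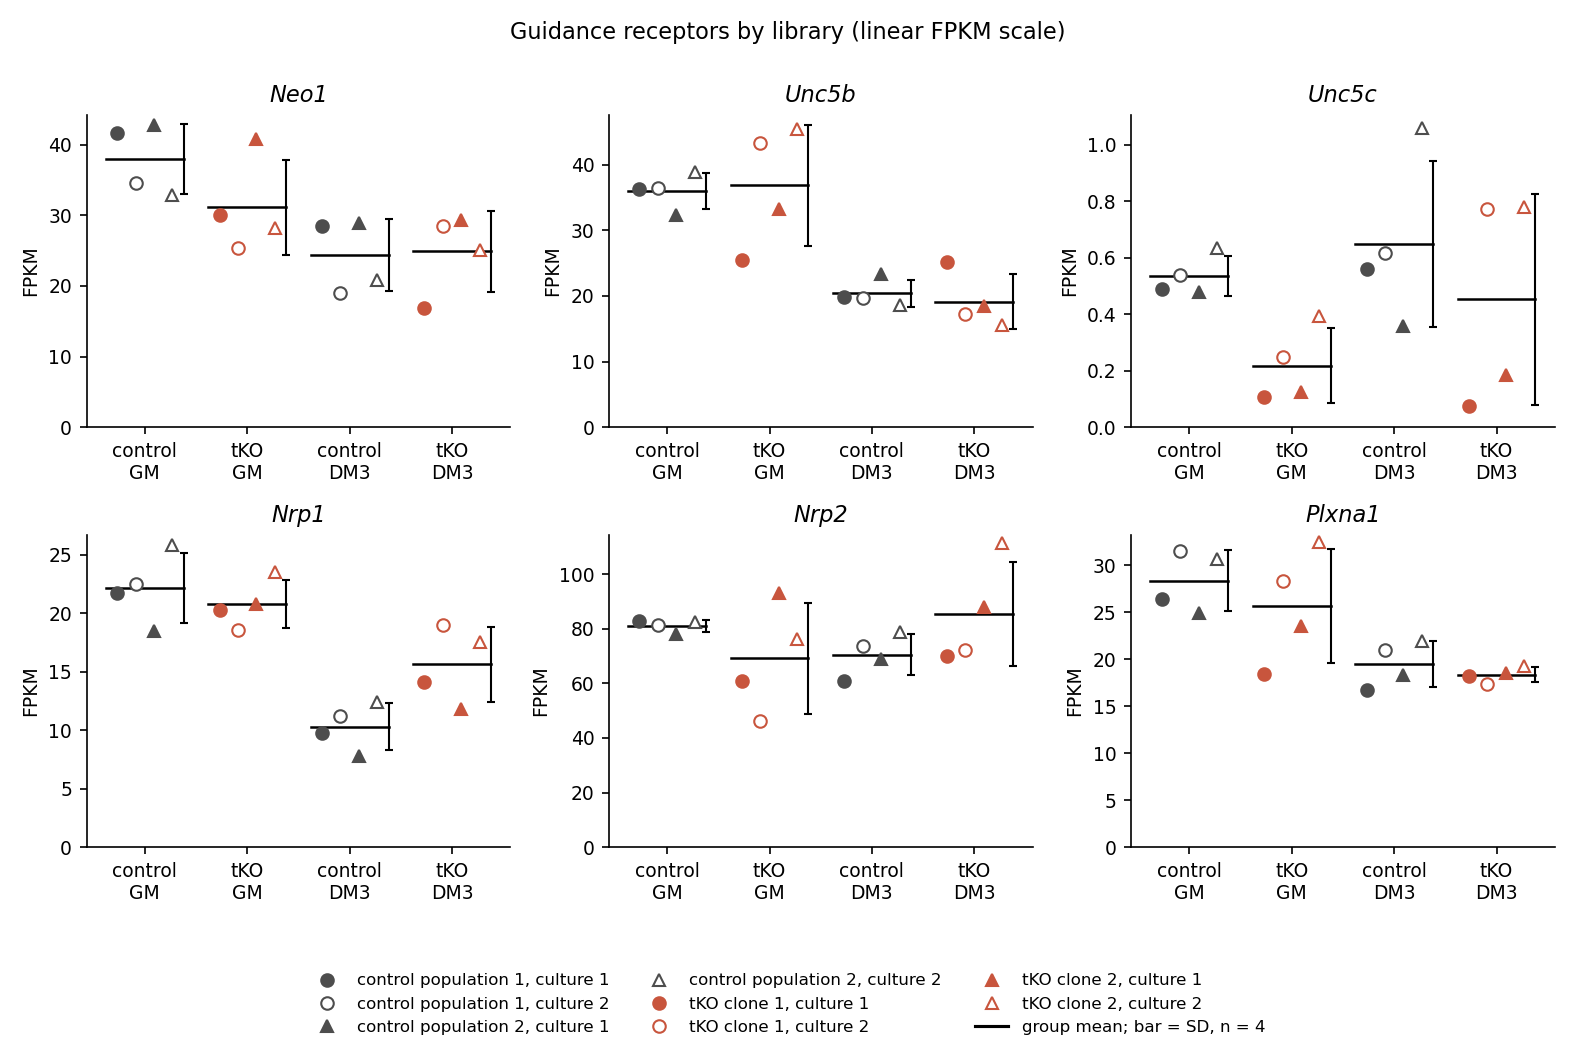
FPKM (linear axis from 0) of the 6 receptor genes in each of the 16 libraries, with the same symbols, mean and SD (n = 4) as for the ligands. The genotypes overlap for 5 of the 6 genes at both stages, Unc5c in GM is the exception, and Neo1, Unc5b, Nrp1 and Plxna1 sit lower in DM3 than in GM in control cells.

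Levels per length can be ordered within a group. In control GM, Nrp2 was followed at a clear distance by Neo1 and Unc5b, whose ranges overlap, then Plxna1, Ntn1 and Nrp1, which overlap in turn, then Sema3a and Sema3c, and last Unc5c and Sema3d. In control DM3 the range of every gene from Neo1 down to Sema3a overlaps that of its neighbour in the order, with Sema3d now between Sema3c and Nrp1. In tKO GM, Ntn1 dropped to eighth place beside Sema3c, whose range it overlaps. In tKO DM3 it stood below Sema3a without overlap, and Sema3d and Unc5c, which overlap, were last.

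Of the 9 tested members, 2 had tKO and control libraries that did not overlap, Ntn1 and Sema3d, and both did so at both stages. Over all tested genes 14% had groups that did not overlap in GM and 8.52% in DM3. Since these genes were picked for this difference, nothing is read from that count. The other 7 tested members overlapped at both stages.

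The set was not chosen by its change with differentiation, and most of it changed. Ntn1 and Sema3d were picked for low tKO values, and the same libraries enter their tests here. For Sema3d that gap is widest in DM3, and the control DM3 libraries also carry its mean over the filter. Its p-values for differentiation are therefore not independent of the choice. In control cells 6 of 9 tested members changed between GM and DM3 (limma, adjusted p under 0.05): Sema3d and Sema3c rose, and Nrp1, Unc5b, Neo1 and Plxna1 fell. Over all tested genes 23.2% rose and 38.3% fell in that comparison, so 2 and 4 of 9 are close to the shares of genes at large. In tKO cells 6 of 9 changed: Sema3c, Sema3d and Sema3a rose, and Unc5b, Plxna1 and Nrp1 fell, with 24.9% of all tested genes rising and 36% falling. The median change of log2(FPKM + 1) was -0.52 over the members and -0.15 over all genes in control cells, and 0.32 and -0.12 in tKO cells. Median-of-ratios scaling moved the median of all genes to 0.01 in both genotypes, after which 3 members rose and 3 fell in control cells, and in tKO cells 5 rose and 1 fell.

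Sema3d rose by 3.44 ± 0.21 on the log2(FPKM + 1) scale in control cells (SE, adjusted p = 3.48e-09 by limma), from a mean of 0.231 to 12.6 FPKM, in all 4 control cultures. In tKO cells it rose by 0.84 ± 0.21 (SE, adjusted p = 0.00276 by limma), from 0.0259 to 0.945 FPKM. That is 36.4-fold in the means, against 54.5-fold in control cells. The pseudocount of 1 lowers the log2 rise more in tKO cells, whose GM libraries held 9 fragments at most. All 4 tKO DM3 libraries are above all 4 tKO GM libraries, so the gene responded in the same direction in tKO cells from a lower start to a lower level. Without clone 1 the rise in tKO cells was 0.41 and did not pass (adjusted p = 0.101 by limma), with clone 2 going from 0 to 2 fragments in GM to 63 and 64 in DM3. Sema3c rose by 1.52 ± 0.26 in control cells (SE, adjusted p = 0.000105 by limma) and by 2.20 ± 0.26 in tKO cells (adjusted p = 2.47e-06 by limma), 3.19-fold and 5.36-fold in the means. Its GM and DM3 libraries did not overlap in either genotype, and the call held in all 30 alternative fits for both. Sema3a rose in tKO cells, by 0.59 ± 0.21 (SE, adjusted p = 0.0231 by limma), and changed by 0.33 in control cells (adjusted p = 0.179 by limma). Its rise in tKO cells did not pass in 7 of 30 alternatives. Without clone 2 the rise was 0.465 (adjusted p = 0.247 by limma). Leaving out culture 2 of clone 1 in DM3, the highest library, gave 0.39 (adjusted p = 0.09 by limma), and leaving out culture 1 or 2 of clone 2 in GM, or culture 2 of clone 2 in DM3, gave adjusted p-values of 0.0553, 0.0588 and 0.0502.

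Ntn1 moved in opposite directions in the 2 genotypes, and neither change passed in the main fit, which takes its spread from all 16 libraries. Its change was -0.60 ± 0.26 in control cells (SE, adjusted p = 0.0558 by limma), where the GM and DM3 libraries do not overlap. It passed in 6 of 30 alternatives, with voom among them (adjusted p = 0.0471). With only the control libraries in the fit the control change was again -0.60 and passed (adjusted p = 0.000351 by limma). Without tKO clone 1 or clone 2 it was also -0.60 and passed (adjusted p = 0.00187 and 0.0182 by limma). In tKO cells it was 0.49 ± 0.26 (SE, adjusted p = 0.112 by limma), with -0.01 in culture 1 and 0.99 in culture 2. Culture 1 of clone 1 in tKO GM, at 6.24 FPKM, stands apart. Without it the control change passed (adjusted p = 0.0135 by limma) and the tKO change was 0.79 (adjusted p = 0.00401 by limma). Without culture 1 of clone 2 in DM3 the control and tKO changes passed as well, at adjusted p = 0.031 and 0.0189 by limma.

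Of the 5 tested receptors, 4 fell in control cells and 3 in tKO cells. Nrp1 fell by 1.05 in control cells (SE 0.16, adjusted p = 2.48e-05 by limma), from a mean of 22.2 to 10.3 FPKM, and by 0.41 in tKO cells (SE 0.16, adjusted p = 0.0313 by limma), from 20.8 to 15.6 FPKM. The fall in tKO cells was lost in 10 of 30 alternatives, among them median-of-ratios scaling (-0.26, adjusted p = 0.121 by limma) and leaving out culture 1 of clone 2 in DM3 (-0.29, adjusted p = 0.116 by limma). It was also lost without culture 1 or 2 of clone 2 in GM (adjusted p = 0.0536 and 0.0876) and without culture 1 of clone 1 in DM3 (0.0675). Without clone 2 the Nrp1 change in tKO cells was -0.23 (adjusted p = 0.378 by limma). Unc5b fell by 0.79 in control cells and by 0.90 in tKO cells (SE 0.17 each, adjusted p = 0.000616 and 0.000195 by limma), about the same in both. Without control population 1 the control fall had an adjusted p of 0.0538.

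Plxna1 fell by 0.52 in control and by 0.44 in tKO cells (SE 0.14 each, adjusted p = 0.00502 and 0.0154 by limma). Both falls were lost with median-of-ratios scaling (-0.33 and -0.28, adjusted p = 0.0744 and 0.119 by limma), and the tKO fall without culture 2 of clone 2 in GM (-0.32, adjusted p = 0.0635 by limma). The control fall was also lost without control population 1 or 2 (adjusted p = 0.141 and 0.0539 by limma), and the tKO fall without clone 2 (0.158) or with only the compared libraries in the fit (0.0527). Neo1 fell by 0.64 in control cells (SE 0.19, adjusted p = 0.0075 by limma), a call lost when either control population is left out (adjusted p = 0.12 and 0.0768). In tKO cells its change was -0.32 (adjusted p = 0.153 by limma). Nrp2 changed by -0.20 in control and 0.32 in tKO cells, and neither passed (adjusted p = 0.337 and 0.132 by limma). Without culture 1 of clone 2 in GM the Nrp2 change in tKO cells was 0.48 and passed (adjusted p = 0.0233 by limma), as it did with median-of-ratios scaling (0.48, adjusted p = 0.0251). Without culture 2 of clone 2 in GM, 3 members changed in tKO cells in place of 6, and without control population 1, 3 changed in control cells in place of 6.

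**Figure D3:**
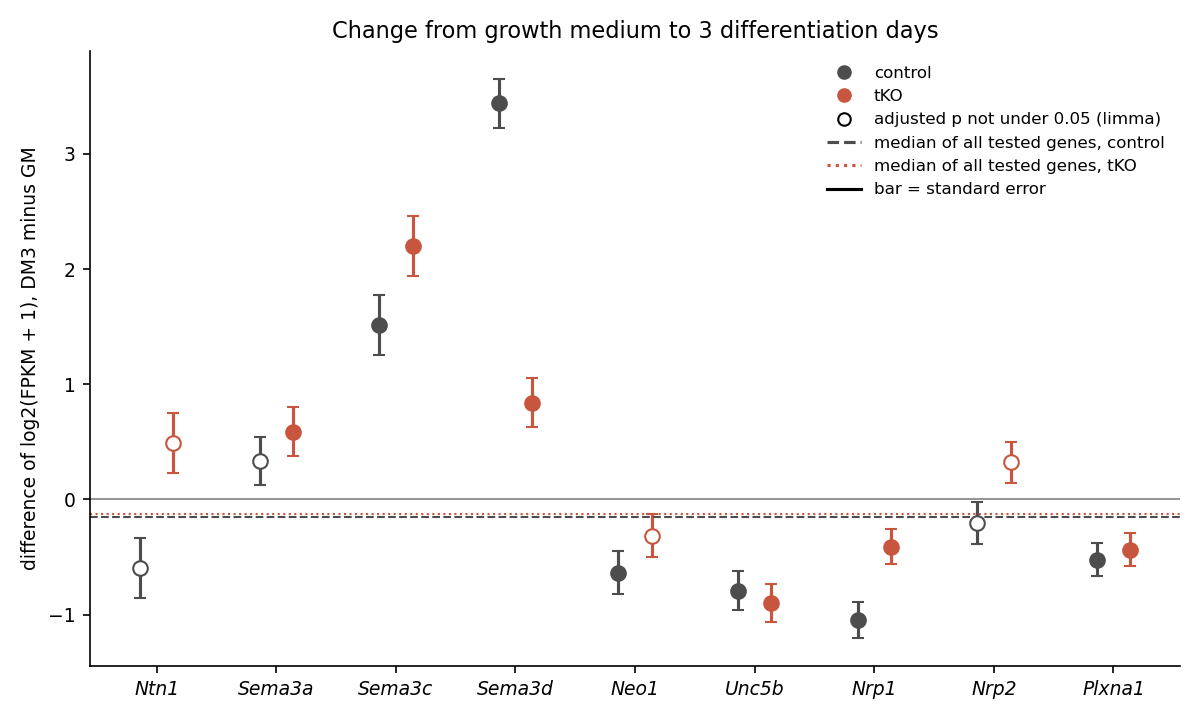
Change of log2(FPKM + 1) from GM to DM3 for the 9 tested members, control in grey and tKO in red, with the standard error as the bar and open symbols where the adjusted p of limma was not under 0.05; dashed and dotted lines mark the medians of all tested genes, -0.15 and -0.12. Sema3d rises by 3.44 in control and 0.84 in tKO cells (54.5-fold and 36.4-fold in the means, as the pseudocount of 1 shrinks changes of low levels). Nrp1, Unc5b and Plxna1 lie below 0 in both.

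Summed markers of muscle, fibroblasts and neurons were higher in DM3 than in GM, but not every listed marker rose. Col1a1 and Col3a1 made up most of the fibroblast sum, and Map2 and Syn1 most of the neuron sum in DM3. In control cells Nefm was at 1.86 to 2.84 FPKM in GM and 0.96 to 1.29 FPKM in DM3, and Tubb3 and Nefl had lower ranges too. Pdgfra in control cells was at 2.54 to 3.95 FPKM in GM and 2.62 to 4.58 FPKM in DM3. The summed level of the 12 muscle markers in GM was 70.0 to 87.9 FPKM in control and 64.8 to 143 FPKM in tKO cells, and in DM3 1215 to 1714 and 615 to 1772 FPKM. The mean log2(FPKM + 1) of these markers in tKO DM3 was 5.45 and 5.15 in culture 1 and 4.57 and 4.39 in culture 2 of clones 1 and 2, against 4.61 to 5.03 in control DM3. The 7 fibroblast markers summed in GM to 870 to 1273 FPKM in control and 426 to 934 FPKM in tKO cells, and in DM3 to 2287 to 2956 and 2119 to 3172 FPKM. Tcf21, a fibroblast marker, was listed at 0 in every tKO and every DM3 library. The 8 neuron markers, of which 4 or 5 were expressed, summed to 13.2 to 15.1, 11.2 to 19.0, 23.6 to 35.0 and 28.4 to 56.0 FPKM in the same order. The 5 adipocyte markers summed in GM to 8.41 to 10.3 FPKM in control and 5.26 to 15.4 FPKM in tKO cells, and in DM3 to 5.60 to 9.01 and 4.02 to 6.74 FPKM. The 5 macrophage markers summed to 1.84 to 4.32 and 2.02 to 8.38 FPKM in GM and to 2.04 to 5.17 and 2.15 to 9.46 FPKM in DM3. The part of these cell types in the changes of the guidance genes was not tested.

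The tKO clones and the control populations were compared with stage as a covariate. No member differed between the tKO clones by limma at an adjusted p under 0.05, and 4 of 9 had an unadjusted p under 0.05, which 17% of all tested genes had. Over all tested genes 0.6% were higher and 0.448% lower in clone 2. Nrp2 had a mean of 62.4 FPKM in clone 1 and 92.2 FPKM in clone 2 (difference of log2(FPKM + 1) 0.56, adjusted p = 0.0982 by limma). Ntn1 was at 5.17 and 2.71 FPKM (-0.70, adjusted p = 0.21), Sema3c at 12.3 and 8.29 FPKM (-0.55, adjusted p = 0.27) and Sema3d at 0.802 and 0.169 FPKM (-0.49, adjusted p = 0.239). With voom on the recovered fragments, which uses no pseudocount of 1 FPKM, Sema3d passed (-2.32, adjusted p = 0.0248). No member differed between the control populations by limma, none of them at an unadjusted p under 0.05, and none with voom. Of all tested genes 0% passed there.

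Related genes at the level of the family were few. Of 99 other guidance genes listed, 52 passed the filter. The netrins beside Ntn1 were low except Ntn4, a laminin-binding netrin, with means in GM of 2.59 FPKM in control and 1.89 FPKM in tKO cells, and in DM3 of 7.44 and 5.99 FPKM. The receptors Dcc, Unc5a and Unc5d had 6 fragments at most in any library, against 22 fragments or more for Unc5c and at least 3989 for Neo1 and 2826 for Unc5b. Among class 3 semaphorins Sema3b and Sema3e were above the filter, Sema3f and Sema3g below it. Of the A-type plexins, Plxna2 (4.22 to 5.23 FPKM over the group means) and Plxna3 (2.66 to 6.70) were present at a fraction of the level of Plxna1, and Plxna4 was at 0.0532 FPKM or less.

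Few of these 52 genes passed the threshold between tKO and control cells. In GM only Robo1, a receptor for Slit ligands and another guidance system, passed, and it was lower in tKO cells. It was at 6.35, 3.71, 3.97 and 4.22 FPKM in control GM and at 3, 6, 5 and 0 fragments in tKO GM, a difference of log2(FPKM + 1) of -2.43 (SE 0.15, adjusted p = 6.21e-08 by limma). In DM3 it was at 4.31, 3.40, 3.84 and 4.89 FPKM in control and at 0.148, 0.432, 0.0286 and 0.0680 FPKM in tKO cells (-2.13, adjusted p = 1.37e-07). The Robo1 groups do not overlap at either stage, and the call held in all 29 alternatives that kept the gene in the test. Over all tested genes 0.549% were higher and 1.51% lower in tKO GM, and 2.02% higher and 1.36% lower in tKO DM3. An unadjusted p under 0.05 (limma) was seen for 18 of the 52 in GM and 10 in DM3, against 2076 and 1990 of 11832 tested genes. In GM, Slit2 was lower in tKO cells (1.14 to 4.66 against 6.52 to 7.705 FPKM) and Efnb2 higher (16.3 to 21.9 against 9.75 to 13.6 FPKM). Neither gene overlapped, and neither passed. The same held, lower in tKO GM, for Dpysl2, Mical1, Dock1, Ephb4, Plxnb2, Sema5a, Gsk3b and Farp1, and higher for Rgmb and L1cam. Over all tested genes 14% had groups that did not overlap in GM. Below the filter and untested, Slit3, Sema6a and Epha4 were lower in tKO cells without overlap at both stages, and Plxnb1 and Flt1 in GM. Sema3g and Sema4d were higher in tKO DM3 without overlap. Some of these values lie near the floor, as tKO GM libraries held 7 fragments at most for Slit3 and 5 for Sema6a. Epha4 was at 0 in every tKO library. Over all tested genes 8.52% had groups that did not overlap in DM3, and neither share covers genes below the filter.

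In DM3 the ephrin ligand Efnb2 and Sema3b also passed, both higher in tKO cells. Efnb2 had a mean of 6.77 FPKM in control and 17.02 FPKM in tKO DM3 (1.13, adjusted p = 0.00707 by limma), with clone 2 at 19.4 and 26.1 FPKM and clone 1 at 9.93 and 12.6 FPKM. Sema3b had means of 14.9 and 22.7 FPKM (0.57, adjusted p = 0.0222 by limma), and its groups do not overlap. That call was lost without culture 1 or culture 2 of control population 1 in DM3 (adjusted p = 0.0628 and 0.0869 by limma), or without culture 2 of clone 2 in DM3 (0.0658). The Efnb2 and Sema3b calls were also lost with only the compared libraries in the fit (adjusted p = 0.0832 and 0.0657 by limma). Leaving out control population 1 or 2 lost both calls as well. The adjusted p-values by limma were then 0.222 and 0.161 for Efnb2 and 0.575 and 0.175 for Sema3b. Sema3e, beside Sema3a on chromosome 5, missed the threshold at 14.5 and 28.2 FPKM (0.88, adjusted p = 0.0531). Without culture 1 of clone 2 in GM, 9 listed genes passed in GM in place of 1, and without culture 1 of clone 1 in DM3, 4. Without culture 1 of clone 1 in GM, 5 passed in DM3 in place of 3. The median difference over the 52 genes was -0.10 in GM and 0.07 in DM3, against -0.01 and 0.01 over all tested genes.

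**Figure D4:**
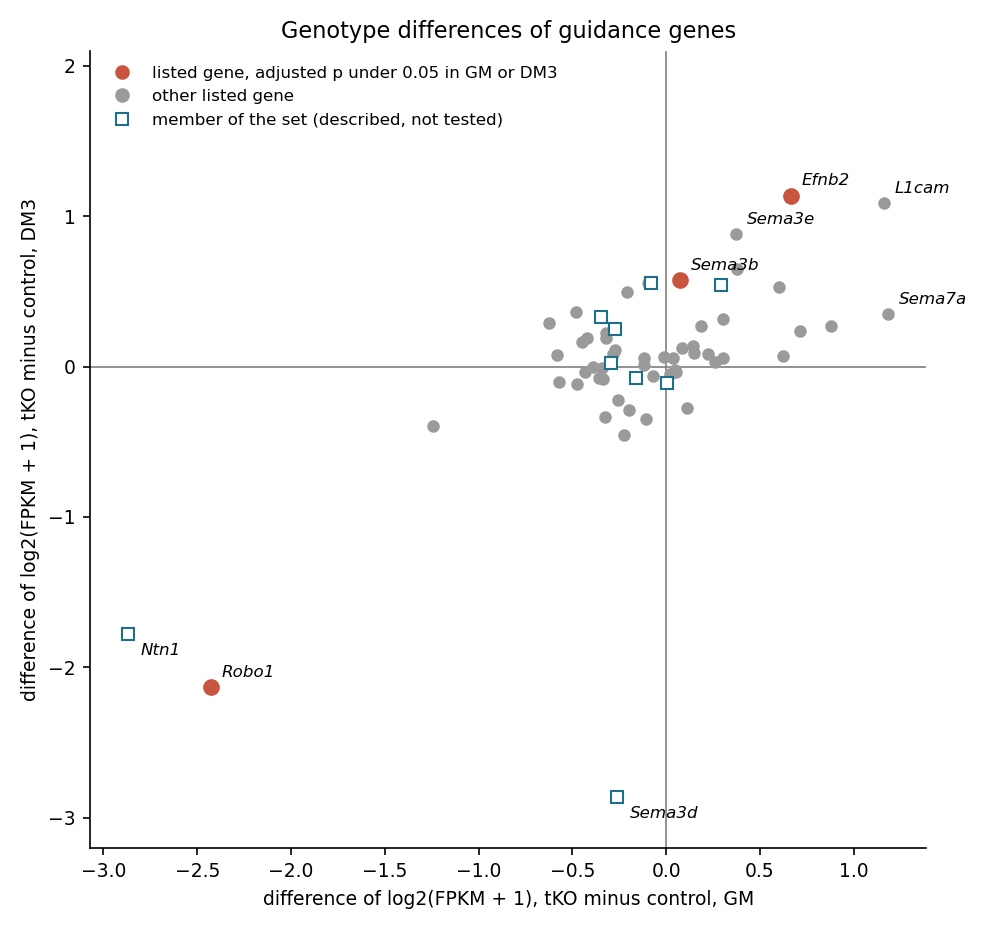
Difference of log2(FPKM + 1) between tKO and control cells in GM (horizontal) and DM3 (vertical) for the 52 tested listed genes and the 9 tested members; red points passed limma at an adjusted p under 0.05 in GM or DM3, and the members (open squares) were not tested. Robo1 is plotted at -2.43 and -2.13, Ntn1 at -2.87 and -1.78 and Sema3d at -0.26 and -2.86. The pseudocount of 1 shapes these places. In GM the means of Ntn1 and Sema3d were 8.61-fold and 8.90-fold lower in tKO cells, and Robo1 went from 4.56 to 0.0174 FPKM.

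Between the clones, 2 of the 52 genes differed, L1cam and Ephb2. Both were lower in clone 2, as were 0.448% of all tested genes, while 0.6% were higher. L1cam, a cell adhesion protein and co-receptor for Sema3a with Nrp1, had a mean of 3.99 FPKM in clone 1 and 0.598 FPKM in clone 2 (-1.66, adjusted p = 0.00764 by limma). It was at 0.0724 to 0.558 FPKM in all 8 control libraries. The Eph receptor Ephb2 was at 2.85 and 0.355 FPKM (-1.49, adjusted p = 0.00492 by limma), with the control libraries between the clones at 0.651 to 1.03 FPKM. For Ephb2 every library of clone 1 was above, and every library of clone 2 below, all 8 control libraries. The L1cam call was lost with no filter on low values (adjusted p = 0.0681 by limma).

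With differentiation 30 of the 52 genes changed in control cells, 17 higher and 13 lower, and 29 in tKO cells, 20 higher and 9 lower (limma, adjusted p under 0.05). Over all tested genes 23.2% rose and 38.3% fell in control cells, and 24.9% rose and 36% fell in tKO cells. With median-of-ratios scaling the listed genes were 23 higher and 10 lower in control, 25 higher and 8 lower in tKO. On that scaling 3611 of all 11832 tested genes rose and 3631 fell in control cells, and 3571 rose and 3587 fell in tKO cells. All 3 tested relatives of the netrin and class 3 semaphorin ligands rose in both genotypes. Ntn4 rose by 1.23 and 1.22, Sema3b by 0.63 and 1.13 and Sema3e by 0.86 and 1.36 on the log2(FPKM + 1) scale in control and tKO cells. Of the repulsive guidance molecules, which bind neogenin, Hfe2 rose by 5.77 and 5.70, from 0.0348 to 55.4 FPKM and from 0.0688 to 56.1 FPKM in the means, and Rgma by 1.17 and 1.44, while Rgmb changed by 0.23 and 0.22 and did not pass (adjusted p = 0.26 and 0.275 by limma). Hfe2 makes hemojuvelin, which skeletal muscle and liver produce.

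Of the other 4 tested plexins, Plxna3 rose in both genotypes (0.57 and 1.08), and Plxnd1 and Plxnb2 rose in tKO cells. Among 6 tested semaphorins of classes 4 to 7, Sema4c rose and Sema7a and Sema4b fell in both, and Sema6b and Sema5a fell in control cells. Sema7a, a membrane-anchored semaphorin, fell by 2.11 in control cells, from 4.32 to 0.198 FPKM, and fell by 2.94 in tKO cells, from 12.6 to 0.572 FPKM. Of 16 tested genes that act downstream of the receptors, 4 rose and 7 fell in control cells, and 4 rose and 6 fell in tKO cells. The kinase Fyn (1.03 and 0.80) and the actin oxidase Mical1 (0.70 and 1.31) rose in both, while Dock1, which activates Rac1 and takes part in myoblast fusion, fell in both (-0.80 and -0.54). The ephrin Efna3 (1.73 and 1.75) and the receptor Ephb6 (1.22 and 2.14) rose in both. Without control population 1 or without control population 2, 15 of the listed genes changed in control cells in place of 30.

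The genes whose pattern was most like that of Ntn1 over the 16 libraries, by Pearson's r of log2(FPKM + 1), were Magea8 (0.955), Robo1 (0.949), Auts2 (0.941), Pid1 (0.938) and Obsl1 (0.938). Magea8 had means of 10.4 FPKM in control and 0.805 FPKM in tKO cells in GM, and of 7.87 and 0.928 FPKM in DM3. For Sema3d they were C1qtnf3 (0.953), Spry1 (0.948), Fam13c (0.945), Ppp1r12b (0.944) and Mylk2 (0.940). C1qtnf3 went from 1.10 to 23.2 FPKM with differentiation in control cells and from 0.133 to 4.07 FPKM in tKO cells. These correlations describe groups that differ in level and share lines, and the same libraries were used to pick the genes.

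Sema3d, Sema3a, Sema3e and Sema3c lie in this order on chromosome 5, with starts 1013.6, 1642.1 and 5191.1 kb after that of Sema3d. Only Sema3d was low in tKO cells in DM3, while the means of the other 3 were above the control means. This look at neighbours was chosen after the values were seen. Among the 13 other tested genes within 6 Mb of the Sema3d start, 1 passed for genotype in DM3, Sri, which was higher in tKO cells (1.02, adjusted p = 0.000119 by limma). In GM 0 passed by limma and 0 with voom, and 3 had an unadjusted p under 0.05. Among 18 other tested genes within 1 Mb of the Ntn1 start, 0 passed by limma at either stage, 0 with voom in GM and 1 with voom in DM3, and 4 in GM and 2 in DM3 had an unadjusted p under 0.05. Their differences ran from -0.83 to 0.29 in GM and from -0.55 to 0.68 in DM3.

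**Figure D5:**
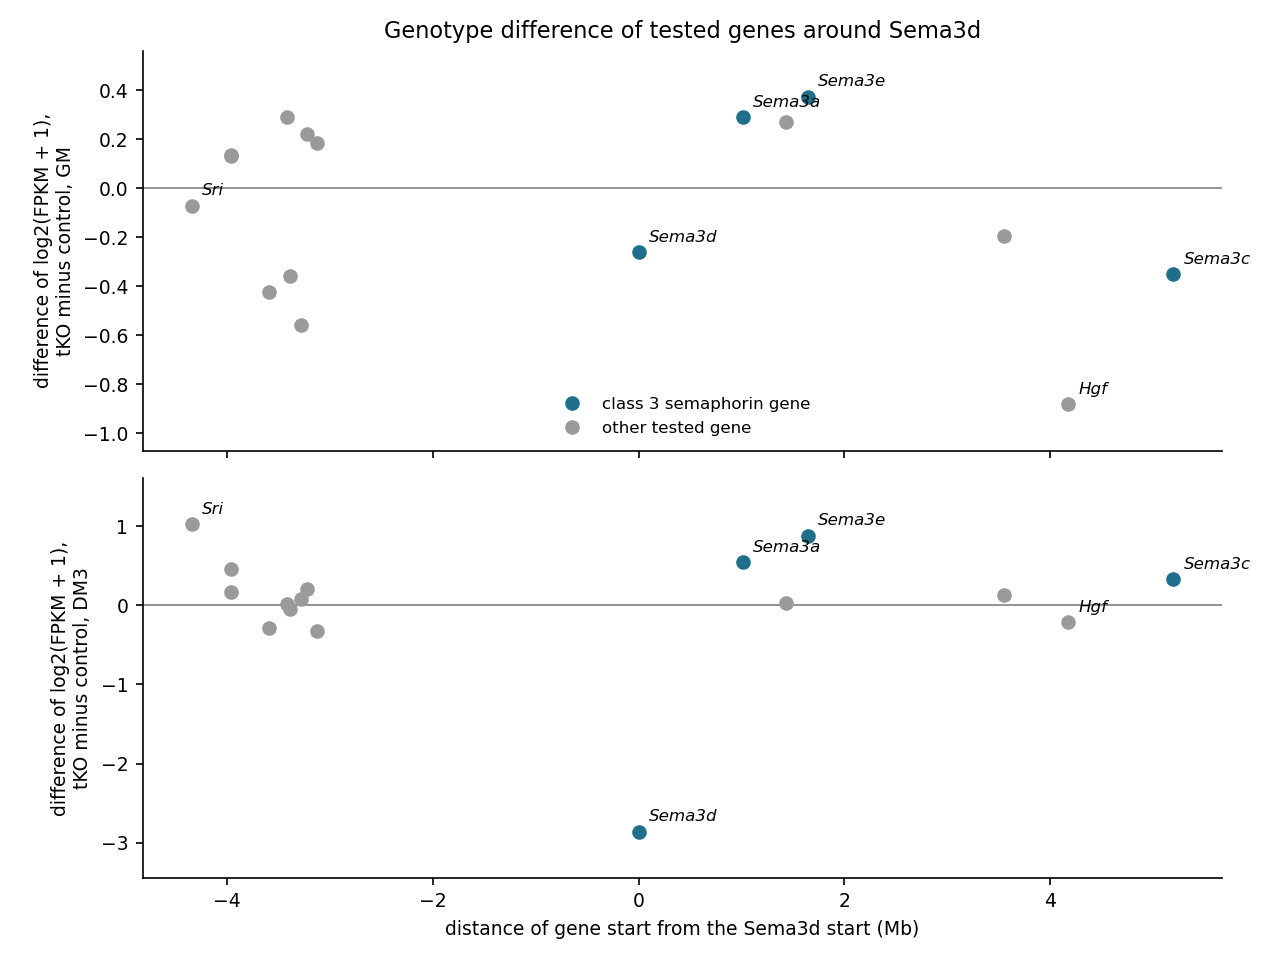
Difference of log2(FPKM + 1) between tKO and control cells in GM (top) and DM3 (bottom) for tested genes, by the distance of their start from the Sema3d start in Mb; blue points are class 3 semaphorin genes. In DM3 Sema3d is at -2.86, while Sema3a, Sema3e and Sema3c are at 0.54, 0.88 and 0.33.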

How the data were processed

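Poly(A) RNA of 16 C2C12 cultures was sequenced. The authors deposited 1 table of FPKM values, 1 column per library, with gene lengths in bases and positions, per the file headers. Per the submitters' processing notes, STAR, DESeq and build mm10 were used, without versions or roles. Whether strand was used in counting is not given in the sources used here. Groups came from the sample titles. FPKM times gene length gave whole fragments for 100% of values within 0.01.

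Genes averaging 0.5 FPKM or more were tested on log2(FPKM + 1), which understates changes of low genes, with limma 3.58.1 in R 4.3.3. The model gave each group a mean over all 16 libraries and used empirical Bayes moderation (trend, robust) and Benjamini-Hochberg adjustment over 11832 genes. The procedure was run on simulated counts with 200 changed genes, the same spread for every gene and no lines or cultures. It recovered 99% of 4-fold and 74% of 2-fold changes, and 4.42% of its calls were false. These rates need not hold for the deposited libraries, whose spread and share of changed genes differ. The p-values measure the spread between these libraries, 4 per group from 2 lines, so they do not cover lines not sampled. Sequences came from RefSeq (GRCm38.p6), and 3′ UTRs from GENCODE M21. Python 3.11.15, numpy 2.4.6, pandas 2.3.3 and matplotlib 3.10.9 were used. The rule for other guidance genes named the 6 largest changes in each direction per comparison, from which examples are given, and near relatives by level. The members, lists and tests were chosen with earlier results of these data known. The alternatives were another pseudocount (0.1), filter (none or 5 FPKM), TPM or median-of-ratios scaling, moderation without trend, culture number or line as a block, fewer libraries, and voom.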

Additional observations from a re-analysis of the deposited data

Results flagged for a closer look

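Both results below come from 1 library, culture 1 of tKO clone 1 in GM. Ntn1 was at 6.24 FPKM there, while the other 3 tKO GM libraries were at 1.89 to 2.37 FPKM, so the gap to the nearest library is most of the group's range. Sema3c was at 6.37 FPKM in the same library and at 2.08 to 2.27 FPKM in the others. Of 60 groups of 4 values examined, these 2 had such a gap. Chance gives such a gap in about 1 in 20 groups, so 2 of 60 is no more than chance gives. The other members were not set apart in that library. Its part in the changes with differentiation is given with those results.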

How the results depend on the processing

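No change that passed the threshold turned its direction in the alternatives run. Of 45 member values, 8 small ones without a call crossed 0, the largest Nrp2 between genotypes in GM, from -0.27 to 0.06 without tKO line 1. The members that changed in control cells numbered 6, 6 to 7 when 1 library was left out, and 3 without control line 1. In tKO cells they numbered 6, and 3 to 7 when 1 library was left out. Other guidance genes changed in control cells numbered 30, 29 to 31 with 1 library left out, and 15 without control line 1 or without control line 2. In tKO cells they were 29, and 25 to 30 with 1 library left out. Between genotypes in GM there was 1, and 1 to 9 with 1 library left out. It became 2 with no filter, 0 with a filter of 5 FPKM (which removes Robo1), 2 with TPM, 2 with the compared libraries only, 2 without tKO line 1 and 11 without tKO line 2. In DM3 there were 3, and 2 to 5 with 1 library left out, 5 with no filter, 1 with the compared libraries only, 1 without control line 1 or 2, 5 without tKO line 1 and 11 without tKO line 2. No member differed between the tKO clones except 1 with voom. The cause of these shifts was not tested. When culture number entered as a replicate block, 3 guidance genes in place of 1 differed between genotypes in GM, and no other count moved by over 1.5 times. Deviations of libraries with the same line and culture number correlated at 0.0923 to 0.291 between the control stages and 0.0771 to 0.323 between the tKO stages, and not every pair was over 0.1. Between genotypes, same-culture pairs of GM libraries ran from 0.147 to 0.403 with the same line number and from 0.0955 to 0.452 otherwise, with every different-culture pair below 0, and in DM3 same-culture pairs ran from -0.224 to 0.558. Depth limits Sema3d in GM, with 72 fragments at most, and Unc5c.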
